A study of Bos taurus and Bos indicus x Bos taurus with 938 samples.

Results

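Cattle embryos caught with 3 blastomeres, between the first and the second completed round of cleavage, were compared with embryos of 2 blastomeres. They comprised 6 in vitro fertilised (IVF) embryos labelled 3-cell, all 18 of whose blastomeres are in the deposited table, and 64 IVF embryos labelled 2-cell, whose group lacks 7 of its 130 labelled blastomeres there. Together these are 17.2% of the blastomeres in the table. Members were chosen by their labelled cell number within the title prefix that holds these IVF embryos, so that both stages come from 1 prefix. A further 17 embryos labelled 4-cell, with 55 blastomeres, carry the same prefix and are used to place the 3-cell embryos. Embryos and blastomeres are named by type and labelled number, so that IVF-510A to IVF-510C, labelled blastomere_510A to blastomere_510C, make up embryo IVF-510. All were labelled Bos indicus x Bos taurus. They were made from oocytes of abattoir ovaries fertilised with thawed frozen semen, and the labels name no treatment that separates the stages. The labels do not say how long each embryo had been cultured, which of its blastomeres had divided, or whether a blastomere had finished dividing.

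After fertilisation the embryo divides without growing, and its cells, the blastomeres, need not divide at the same moment. An embryo of 3 cells therefore normally holds 1 cell of the earlier stage beside the daughters of the other. Early cleavage in cattle is prone to errors in which whole chromosomes go to one daughter only. ATAC-seq uses the Tn5 transposase to cut and tag DNA where chromatin is open. In a single cell it reads few molecules of each region, so a missing signal can mean closed chromatin, lost DNA or a fragment that was not recovered.

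Regions carry only a running number in the table, with a 0 (read as closed) or a 1 (read as open) for every blastomere. Its columns bear running numbers, and their match to the labelled blastomeres is an inference from that numbering, on which every value here rests. The table names neither positions nor genes, so no region could be tied to a sequence. The depth in reads cannot be known from such values, so open calls stand for it. Along the numbering, regions opened together in 29 blocks of 4700 to 17000 regions, where the correlation had a median of 0.837 within a block and did not exceed 0.27 across a boundary. Across these blocks, the number of regions had a Pearson correlation of 0.986 with the spans of the 29 cattle autosomes sorted as text, and of 0.0943 with the spans sorted by number. The file names no chromosome, and the blocks are called by number. The last regions form blocks P (4400 regions) and Q (430 regions), and the 23100 regions between block 29 and block P are called the mixed segment. Relative coverage is the number of open calls of a block over the number expected from the blastomere's total and the regions' openness, scaled so that 1 is the mean of the usable blastomeres. It is not read coverage. A block under 0.1 is called absent, and a blastomere is called usable with at least 2000 calls in the 29 blocks.

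The 18 blastomeres of 3-cell embryos had between 881 and 59567 open calls, with wide differences inside most embryos. Embryo IVF-510 had 3017 open calls in blastomere A, 8838 in B and 9444 in C. Embryo IVF-515 had 7632, 18283 and 881, and embryo IVF-549 had 4860, 2089 and 2064. These 3 embryos differ in form, since IVF-510 and IVF-515 have 1 blastomere well below the others and IVF-549 has 1 above a pair of nearly equal yield. Embryo IVF-551 had 3841 in A and 5424 in C, with fewer in B, which had 771 calls in the 29 blocks. Embryo IVF-581 had 6745, 2886 and 2411 open calls, and embryo IVF-582 had 2451, 36239 and 59567. Blastomeres IVF-582B and IVF-582C stood above all other 3-cell blastomeres, and embryo IVF-582 gave 55.1% of all calls of the 6 embryos. In IVF-549 and IVF-581, blastomere A had 2.33 and 2.34 times the calls of B, while B had 1.01 and 1.2 times those of C.

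**Figure D1:**
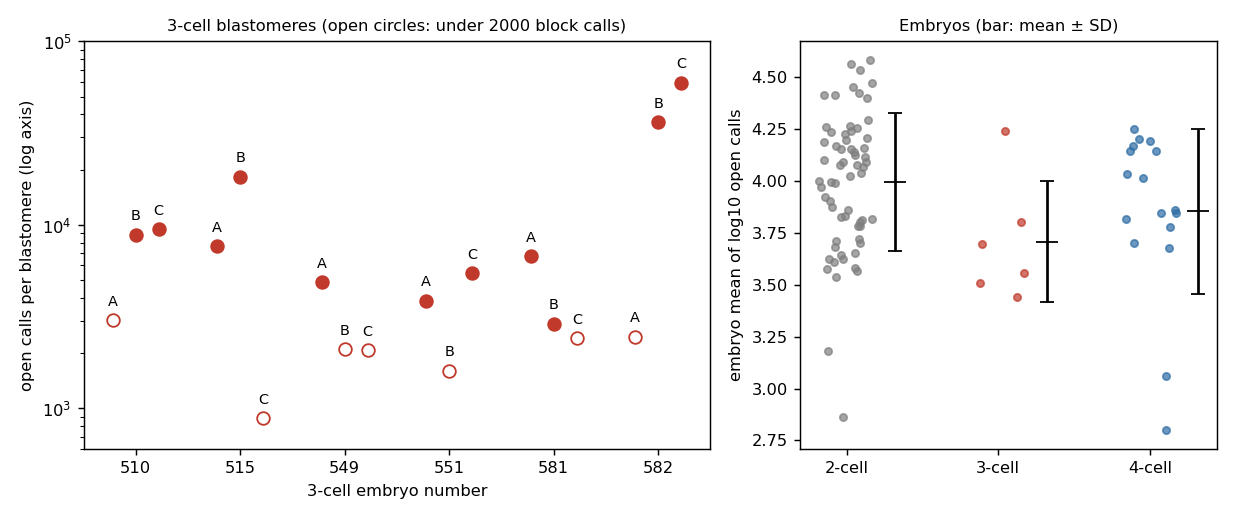
Left, open calls (log axis) of each blastomere, lettered, in the 6 IVF 3-cell embryos, with open circles for those under 2000 calls in the 29 blocks. Right, the embryo mean of log10 open calls at the 2-, 3- and 4-cell stage, 1 point an embryo with mean ± SD. The 3-cell values run between 3.44 and 4.24, inside the range of the 2-cell values.

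The median blastomere had 10220 calls in 2-cell, 4350 in 3-cell and 7441 in 4-cell embryos. With the embryo as the replicate, the mean of log10 calls was 3.71 ± 0.292 in 3-cell embryos (SD, n = 6) and 3.99 ± 0.331 in 2-cell embryos (SD, n = 64). The difference of -0.287 did not pass the threshold of 0.05 after Benjamini-Hochberg adjustment over 11 single-value comparisons (exact two-sided permutation test, p = 0.0445, adjusted p = 0.163). It passed without embryo IVF-582 (-0.394, exact permutation test, adjusted p = 0.0421). With only the embryos that have all labelled blastomeres in the table it was -0.309 (exact permutation test, p = 0.0183, n = 6 and 59), with an adjusted p of 0.0306 over the 5 comparisons that setting gives and of 0.0672 over all 11. The yield spread within embryos, the mean absolute log10 ratio over pairs of blastomeres, was 0.505 ± 0.309 in 3-cell embryos (SD, n = 6) and 0.391 ± 0.333 in 2-cell embryos (SD, n = 59; exact permutation test, adjusted p = 0.687). Under 2000 block calls fell 7 of 18 3-cell blastomeres (38.9%), against 11 2-cell blastomeres (8.94%). No 3-cell embryo had all its blastomeres usable, which limits every block value below.

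**Figure D2:**
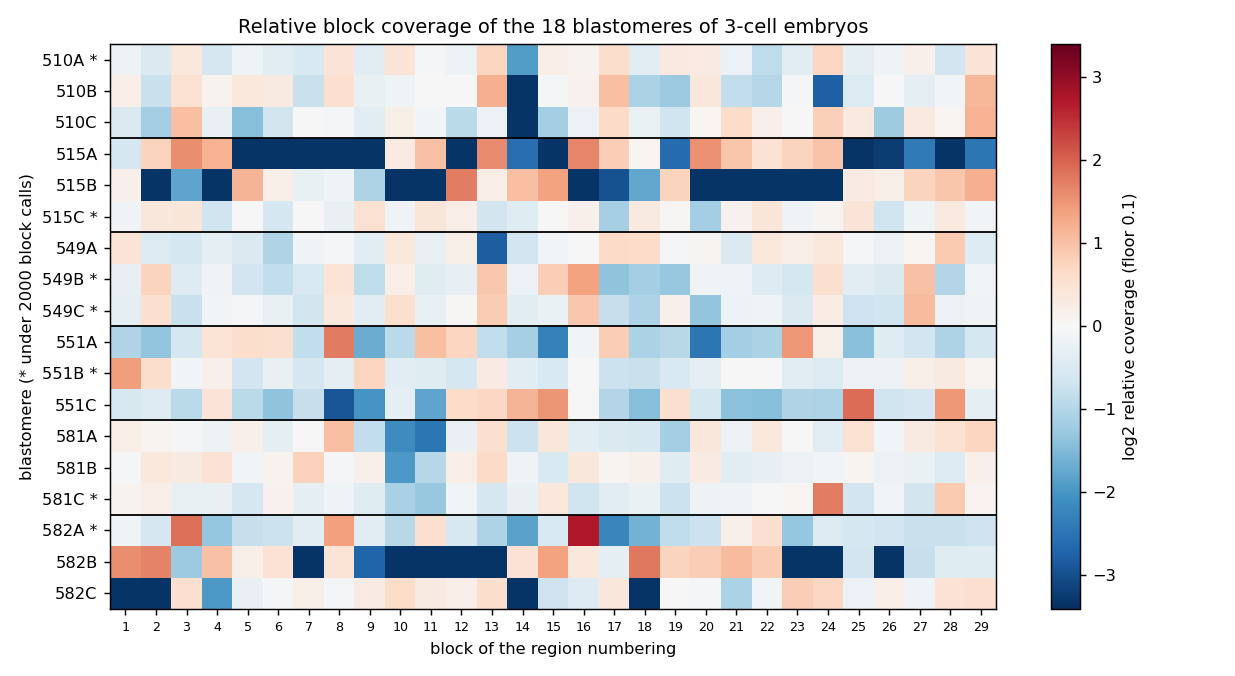
Relative coverage (log2, floored at 0.1) of the 29 blocks in the 18 blastomeres of 3-cell embryos, with lines between embryos and an asterisk at blastomeres under 2000 block calls. Rows IVF-515A and IVF-515B are dark blue in different blocks, as are IVF-582B and IVF-582C, and IVF-510A, IVF-510B and IVF-510C share a low block 14.

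Embryo IVF-515 showed a near-complete division of blocks between its deep blastomeres. Blastomere IVF-515A lacked 9 blocks (5, 6, 7, 8, 9, 12, 15, 25 and 28) and IVF-515B lacked 10 others (2, 4, 10, 11, 16, 20, 21, 22, 23 and 24). These blocks were low and not empty. At a threshold of 0.05 none was absent from IVF-515A, whose lowest was block 7 at 0.0721. Only blocks 21 (0.0274) and 24 (0.0434) were then absent from IVF-515B. In block 12 there were 22 calls in IVF-515A, 2746 in IVF-515B and 40 in IVF-515C, a relative coverage of 0.0723, 3.34 and 1.16. In block 16 there were 432, 20 and 17 calls, a relative coverage of 3.19, 0.0543 and 1.13. Across blocks, 22 of 29 were under 0.2 in one and above 1 in the other of IVF-515A and IVF-515B, and block 13 alone was above 1 in both. Their log2 coverage had a correlation of -0.838, the lowest of the 18 pairs within 3-cell embryos. The mean of the 2 blastomeres was more even than either, with a standard deviation over blocks of 0.627 in log2 units, where IVF-515A had 2.08 and IVF-515B 1.93. Averaging evens out other pairs too, though by less in the positively correlated IVF-510B and IVF-510C (0.772, against 0.995 and 0.888).

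Blastomere IVF-515C, with 881 calls, shared neither pattern. Its relative coverage lay between 0.449 and 1.44 in all 29 blocks, and it correlated at -0.119 with IVF-515A and at 0.0145 with IVF-515B. Thinning each blastomere to 500 block calls left an unevenness (SD over blocks of log2 coverage) of 2.01 in IVF-515A, 1.85 in IVF-515B and 0.514 in IVF-515C. At matched calls IVF-515C was thus flatter than IVF-515A and IVF-515B. The other blastomeres under 2000 block calls, thinned alike, were at 0.534 (IVF-510A), 0.602 (IVF-551B), 0.717 (IVF-549C), 0.753 (IVF-581C), 0.894 (IVF-549B) and 1.1 (IVF-582A). Thinning a deep library does not reproduce one of low yield, so it cannot set yield aside. Whether the flatness of IVF-515C goes with its low yield was not tested.

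Embryo IVF-582 showed the same opposition between its deep blastomeres. Blastomere IVF-582B lacked 8 blocks (7, 10, 11, 12, 13, 23, 24 and 26) and IVF-582C lacked 4 (1, 2, 14 and 18). Of these, only block 11 in IVF-582B (0.0406) and block 14 in IVF-582C (0.0481) were under 0.05. In block 18 there were 12 calls in IVF-582A, 2246 in IVF-582B and 76 in IVF-582C. In block 11 there were 85, 42 and 2312. In 13 of 29 blocks one of IVF-582B and IVF-582C was under 0.2 and the other above 1, no block was above 1 in both, and their correlation was -0.662. IVF-582B and IVF-582C are the 3-cell blastomeres with the most calls. Blastomere IVF-582A had block 16 at 6.56 and block 3 at 3.66, the first being the highest value of any 3-cell blastomere, from 265 calls. It correlated at 0.0394 with IVF-582B and at 0.187 with IVF-582C.

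**Figure D3:**
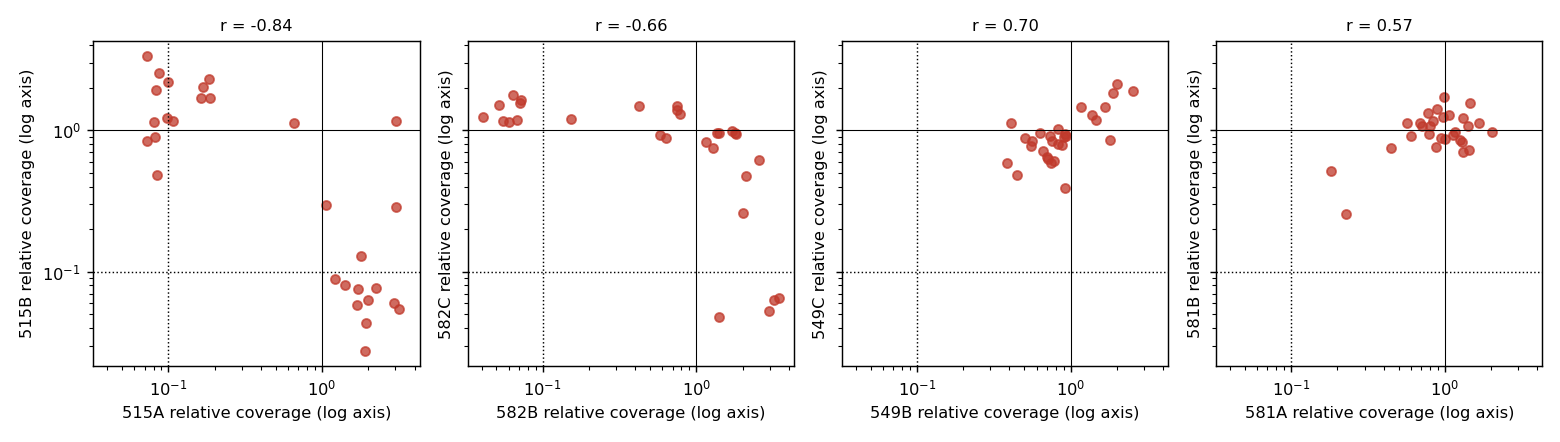
Relative coverage (log axes) of the 29 blocks in one blastomere against another of the same 3-cell embryo, 1 point a block, with dotted lines at 0.1 and solid lines at 1. The pairs IVF-515A with IVF-515B and IVF-582B with IVF-582C fill opposite corners (r = -0.84 and -0.66), while IVF-549B with IVF-549C and IVF-581A with IVF-581B run along the diagonal (r = 0.70 and 0.57).

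Embryos IVF-510 and IVF-581 each had blocks that were low in all 3 of their own blastomeres, and these blocks differed between the embryos. In embryo IVF-510, block 14 had 14, 12 and 19 calls in A, B and C, a relative coverage of 0.27, 0.064 and 0.0929, and it was the lowest block of each. The pairs correlated at 0.482 (A with B), 0.592 (A with C) and 0.362 (B with C). Block 24 differed most between them in ratio and was at 0.145 in IVF-510B, against 1.63 in IVF-510A and 1.77 in IVF-510C, and other blocks differed less, such as block 5, at 1.27 in IVF-510B and 0.365 in IVF-510C. In embryo IVF-581, block 10 was at 0.227, 0.257 and 0.466 and block 11 at 0.182, 0.514 and 0.407 in A, B and C, and no block was absent. Its pairs correlated at 0.574 (A with B), 0.48 (A with C) and 0.248 (B with C), and block 24 stood at 3.35 in IVF-581C, against 0.785 in IVF-581A and 0.942 in IVF-581B.

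In embryo IVF-549 the pair of nearly equal yield also had the most similar block profile. Blastomeres IVF-549B and IVF-549C correlated at 0.697, and each correlated at -0.29 with IVF-549A (-0.291 and -0.289). Block 13 was at 0.144 in IVF-549A, 1.89 in IVF-549B and 1.82 in IVF-549C, from 10, 39 and 35 calls. Block 27 was at 1.04, 2 and 2.13. The correlation of 0.697 was above that of every pair of 3-cell blastomeres from different embryos, which lay between -0.406 and 0.533. So were those of IVF-510A with IVF-510C (0.592) and IVF-581A with IVF-581B (0.574). Both blastomeres had under 1000 block calls, so the values of single blocks carry a wide counting error.

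Embryo IVF-551 had 3 profiles that differed from each other. Block 8 was at 3.43 in IVF-551A, 0.799 in IVF-551B and 0.133 in IVF-551C. Block 25 was at 0.375, 0.874 and 3.76. Block 1 was highest in IVF-551B, at 2.66, where IVF-551A had 0.489 and IVF-551C 0.691. Blastomeres IVF-551A and IVF-551C correlated at -0.395, and no block of the embryo was absent.

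Among usable blastomeres, 6 of 11 from 3-cell embryos had at least 1 absent block (54.5%, exact 95% interval 23.4 to 83.2, counting error only), and 60 from 2-cell embryos (53.6%, 43.9 to 63.1). The 6 came from embryos IVF-510, IVF-515 and IVF-582, 2 from each. Taken per embryo, that share averaged 50% ± 54.8 in 3-cell embryos (SD, n = 6) and 52.4% ± 43.8 in 2-cell embryos (SD, n = 62; exact permutation test, p = 1). Absent blocks per blastomere were 2.75 ± 4.05 and 2.15 ± 2.75 (exact permutation test, adjusted p = 0.8, n = 6 and 62), a difference of 0.597 that turned to -0.753 without embryo IVF-515 and to -0.0532 without embryo IVF-582. The unevenness of block coverage was 1.16 ± 0.541 in 3-cell embryos and 1.21 ± 0.423 in 2-cell embryos (exact permutation test, adjusted p = 0.884, n = 6 and 62). Each of these differences was smaller than the spread between embryos of either stage.

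Where a block was absent from a 3-cell blastomere, a usable sister mostly had a relative coverage above 1 in it. Relative coverage is scaled to the blastomere's total, so a sister that lacks other blocks is raised in those it keeps. The share above 1 over all blocks was not computed, so the counts below have no baseline. In the 33 such cases the sister's relative coverage had a median of 1.64, and it was above 1 in 28 (84.8%). In 2-cell embryos the median was 1.48, with 75.1% above 1. In 4-cell embryos the median was 0.247, with 39.7% above 1 and 95 values under 0.2. These 4-cell values lean on embryo IVF-530, which had 10.75 absent blocks per usable blastomere, where the next highest, IVF-511, had 3. The 4-cell values without IVF-530 were not computed, so their distance from the other stages cannot be read as a trait of the stage. The 3-cell cases came mostly from IVF-515 and IVF-582 and were not tested, since blocks of 1 blastomere are not replicates.

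The mean correlation between usable blastomeres of an embryo averaged -0.346 ± 0.392 in 2-cell (SD, n = 50), -0.192 ± 0.627 in 3-cell (SD, n = 5) and 0.238 ± 0.401 in 4-cell embryos (SD, n = 14). The 3-cell embryos lay at both ends, with -0.838 in IVF-515, -0.662 in IVF-582 and -0.395 in IVF-551, and with 0.362 in IVF-510 and 0.574 in IVF-581. Each of these rests on the 1 pair of usable blastomeres in the embryo, and IVF-549 had none. Neither the difference from 2-cell embryos (0.155, exact permutation test, adjusted p = 0.687, n = 5 and 50) nor that from 4-cell embryos (-0.43, exact permutation test, p = 0.0938, adjusted p = 0.586, n = 5 and 14) passed the threshold. Without embryo IVF-581 the difference from 2-cell embryos was -0.0371. Pairs from different embryos averaged 0.0189 within the 3-cell stage (50 pairs) and -0.0023 within the 2-cell stage (6166 pairs).

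**Figure D4:**
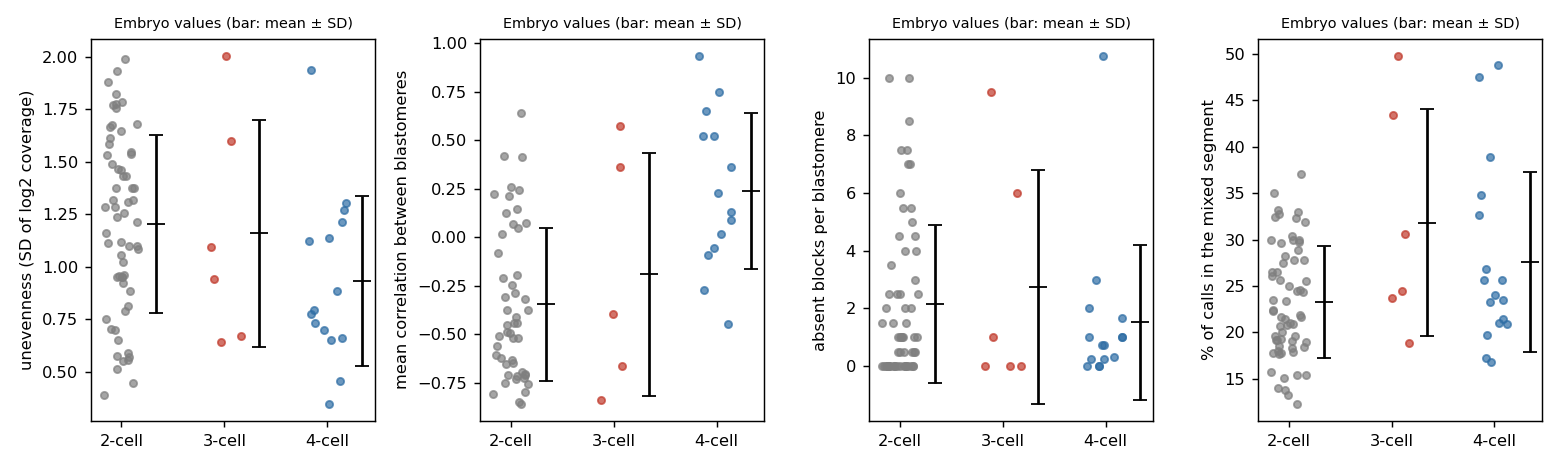
Embryo values at the 2-, 3- and 4-cell stage, 1 point an embryo with mean ± SD: unevenness of block coverage, mean correlation between usable blastomeres, absent blocks per blastomere, and percent of calls in the mixed segment. The 3-cell embryos spread across the ranges of the other stages, and for the mixed segment IVF-549 (49.7%) and IVF-551 (43.4%) lie above every 2-cell embryo.

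No single block passed the test between the stages. Of 29 blocks, 0 passed an adjusted p of 0.05 in the exact permutation test over 6 3-cell and 62 2-cell embryos (0% called; 0 also at an unadjusted p under 0.05). The lowest p in the downward direction was that of block 14, whose log2 coverage was -1.10 ± 1.19 in 3-cell embryos and -0.49 ± 0.71 in 2-cell embryos (difference -0.61, exact permutation test, p = 0.0652, adjusted p = 0.906). Embryo IVF-510, where all 3 blastomeres were low in it, had the lowest value at -3.32, the floor. The difference in block 9 was -0.55 (exact permutation p = 0.181). Blocks 29 and 28 had the smallest p upward, with differences of 0.53 and 0.51 (exact permutation p = 0.134 and 0.195).

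Blocks P and Q, at the end of the numbering, varied widely between blastomeres. Block P was at 0.9 ± 0.288 in 3-cell embryos and 0.963 ± 0.329 in 2-cell embryos (exact permutation test, adjusted p = 0.8, n = 6 and 62). It took part in the opposition within embryos, at 0.116 in IVF-515A (14 calls) and 1.18 in IVF-515B (367 calls), and at 2.26 in IVF-582B (1338 calls) and 0.577 in IVF-582C (590 calls). Block Q held at most 20 calls in a 3-cell blastomere, and none in IVF-515A. Its coverage was 1.31 ± 1.03 in 3-cell embryos and 0.97 ± 2.02 in 2-cell embryos (exact permutation test, adjusted p = 0.687, n = 6 and 62). The difference of 0.343 was 0.0193 without embryo IVF-551 (exact permutation test, adjusted p = 0.976) and 0.563 without IVF-515 (exact permutation test, adjusted p = 0.191). The 2-cell spread rests on embryo IVF-542, at 16.5, without which the 2-cell mean was 0.716 ± 0.299 (SD, n = 61).

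Calls of 3-cell embryos fell more often in the mixed segment and in commonly open regions, and both shares also moved with the number of calls. The share in the mixed segment was 30.6% in embryo IVF-510, 24.5% in IVF-515, 49.7% in IVF-549, 43.4% in IVF-551, 23.8% in IVF-581 and 18.9% in IVF-582. Their mean was 31.8% ± 12.2 (SD, n = 6), against 23.3% ± 6.03 in 2-cell embryos (SD, n = 64; difference 8.5 percentage points, exact permutation test, p = 0.00571, adjusted p = 0.0362). Commonly open regions, 1329 regions open in at least 50% of the blastomeres under other title prefixes, took 17.2%, 13.1%, 36%, 28.6%, 12% and 8.46% of the calls in embryos IVF-510, IVF-515, IVF-549, IVF-551, IVF-581 and IVF-582. Their mean was 19.2% ± 10.8 in 3-cell embryos and 11.7% ± 5.33 in 2-cell embryos (difference 7.48, exact permutation test, p = 0.00658, adjusted p = 0.0362, n = 6 and 64). Against 4-cell embryos neither share passed: the mixed segment took 27.6% ± 9.73 of their calls (SD, n = 17; difference 4.24, exact permutation test, adjusted p = 0.586) and commonly open regions took 15.2% ± 9.12 (difference 3.97, exact permutation test, adjusted p = 0.586, n = 6 and 17). The 4-cell embryos IVF-513 and IVF-514 had 47.5% and 48.8% in the mixed segment, near IVF-549 and IVF-551. The 2 shares are not separate results, since 87.8% of the commonly open regions lie in the mixed segment.

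Given the number of calls neither share passed the test, and both rested on embryos IVF-549 and IVF-551. Across the 2-cell embryos the shares had a Pearson correlation with the mean of log10 calls of -0.746 (mixed segment) and -0.803 (commonly open regions), given as a description over 64 embryos. As a residual from the line through the 2-cell embryos, the 3-cell excess was 4.59 percentage points in the mixed segment (exact permutation test, p = 0.054, adjusted p = 0.198, n = 6 and 64) and 3.76 in commonly open regions (exact permutation test, p = 0.0517, adjusted p = 0.19, n = 6 and 64), with 3 of 6 embryos above the 2-cell mean. Without IVF-549 the differences were 4.91 and 4.11 (exact permutation test, adjusted p = 0.472 for both). Without IVF-551 they were 6.17 and 5.61 (exact permutation test, adjusted p = 0.26 for both), and without IVF-510 they were 8.74 and 7.89 (adjusted p = 0.0507 for both).

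The embryo numbers were cut into 4 runs, of which 3 hold 2 of the 3-cell embryos each. The cuts were set in the analysis and are not given by the labels, which do not say whether a run was a batch. In the run of IVF-549 and IVF-551, the mixed segment took 46.6% of calls in the 2 3-cell embryos and 25.4% in 16 2-cell embryos. In the run of IVF-510 and IVF-515 it took 27.5%, against 24.5% in 9 2-cell embryos, and in that of IVF-581 and IVF-582 it took 21.3%, against 21% in 22 2-cell embryos. Compared within runs, the difference in the mixed segment was 8.18 percentage points (permutation test, p = 0.00641, adjusted p = 0.0352) and that in commonly open regions was 7.39 points (permutation test, p = 0.00609, adjusted p = 0.0352), over 6 3-cell and 47 2-cell embryos.

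**Figure D5:**
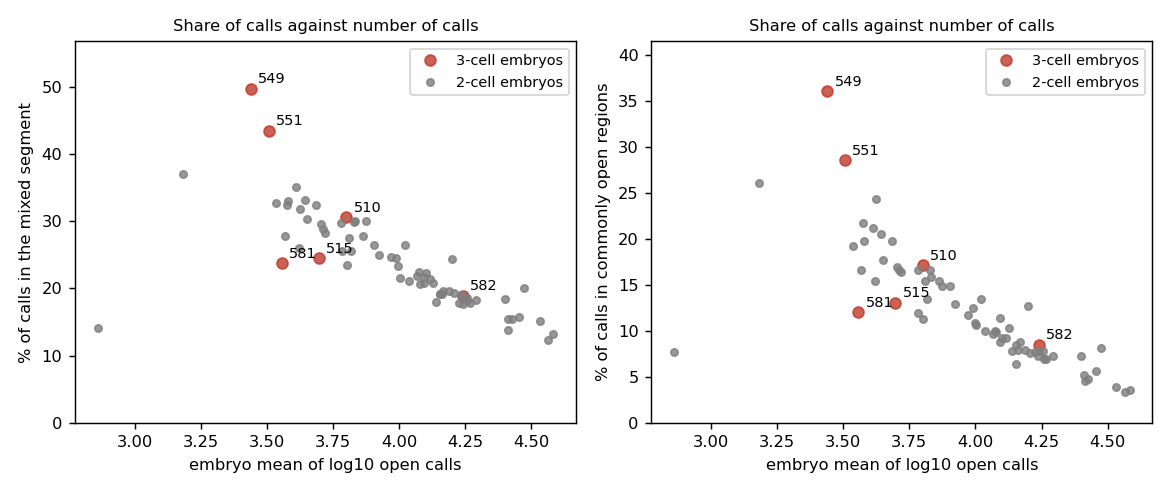
Percent of calls in the mixed segment (left) and in commonly open regions (right) against the embryo mean of log10 open calls, for 3-cell embryos (labelled by number) and 2-cell embryos. The 2-cell points slope downward, and IVF-549 and IVF-551 lie above them. IVF-515 and IVF-581 lie below the 2-cell points of similar calls. IVF-510 lies at the upper edge of the 2-cell points, and IVF-582 lies among them.

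In 4 of 6 3-cell embryos (66.7%) and 39 of 58 2-cell embryos (67.2%), blastomeres shared fewer open regions with each other than with blastomeres of other embryos of the stage. These were mostly the embryos with more calls. At 1000 calls each, the Jaccard index (regions open in both over regions open in either) of blastomeres of 1 embryo minus that with other embryos of the stage was 0.00734 ± 0.0218 in 3-cell embryos (SD, n = 6) and 0.000972 ± 0.0063 in 2-cell embryos (SD, n = 58; exact permutation test, adjusted p = 0.206). The values were -0.00256 in IVF-510, -0.00844 in IVF-515, 0.0452 in IVF-549, 0.022 in IVF-551, -0.00284 in IVF-581 and -0.00924 in IVF-582. IVF-549 and IVF-551, above 0, had the lowest means of log10 calls (3.44 and 3.51). Among 2-cell embryos, those above 0 had means of at most 3.90 (IVF-605), and those below 0 of at least 3.72 (IVF-509). Whether the sign goes with yield or with absent blocks was not tested. Without embryo IVF-549 the difference between the stages was -0.0012. As a description added after seeing the data, in the 29 blocks and with commonly open regions left out, IVF-549B and IVF-549C shared 130 calls where 6.92 were expected from their totals, region openness and block coverage, a ratio of 18.8. The highest ratio within a 2-cell embryo was 3.79, and within a 4-cell embryo 4.27. All pairs of embryo IVF-551 also lay above these, at 15 (A with B), 8.14 (B with C) and 4.89 (A with C). Between embryos the ratio was as high, since IVF-551B reached 22 with IVF-549B and 23 with IVF-549C. The 130 shared regions were open in a median of 31.8% of the blastomeres of other prefixes, against 1.93% over all regions considered. The pairs IVF-515A with IVF-515B (1.06) and IVF-582B with IVF-582C (0.828) were near or under 1.

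Of all regions, 102589 (33.9%) were open in at least 10% of the embryos compared and were tested in 6 3-cell and 63 2-cell embryos with at least 1000 calls. None was called open more often (0% called) or less often (0% called) in 3-cell embryos at an adjusted p of 0.05 in the score test bounded by an exact binomial p. At an unadjusted p under 0.05 there were 278 regions (0.271% of those tested), all open more often. The score test alone called 19 regions and limma on log2 ratios called 4, all open more often, and limma with the run of embryo numbers as a term called 0. The median region tested was expected to be open in 0.846 of the 18 3-cell blastomeres, and at such counts a region with 0 calls cannot reach a p under 0.05, so that the single direction of the 278 says little. The smallest p downward was that of region 159614, in block 18, which had 0 calls where 3.27 were expected in 3-cell embryos and 38 where 35.3 were expected in 2-cell embryos (exact binomial bound, p = 0.0688, adjusted p = 1). Region 243796, in block 27, had 0 calls against 3.21 expected in 3-cell embryos and 36 against 34.6 in 2-cell embryos (exact binomial bound, p = 0.082).

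The regions with the smallest p upward both lie in block 28. Region 261333 was open in 7 blastomeres of 5 of the 6 3-cell embryos (IVF-510C, IVF-549A, IVF-551C, IVF-581A, IVF-581C, IVF-582B and IVF-582C), where 1.74 were expected, against 11 calls in 2-cell embryos, where 18.6 were expected. Its log2 ratio of 3-cell to 2-cell was 2.76 with a standard error of 0.63 (exact binomial bound, p = 0.000921, adjusted p = 1). Region 252131 was open in 5 blastomeres of 3 3-cell embryos, with 1.04 expected, and had 5 calls in 2-cell embryos, with 11.1 expected (log2 ratio 3.41 with a standard error of 1.2, exact binomial bound, p = 0.00162, adjusted p = 1). Neither passed the adjustment. The expected calls take no account of block coverage. In the blastomeres with region 261333 open, block 28 was at 1.84 (IVF-549A), 2.77 (IVF-551C), 1.44 (IVF-581A), 1.86 (IVF-581C) and 1.4 (IVF-582C). It was at 1.05 in IVF-510C and 0.747 in IVF-582B. Whether the openness of these regions goes with the coverage of the block was not tested.

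One library goes against its embryo number. Blastomere IVF-551D is labelled 4-cell, although the number of embryo IVF-551 otherwise names a 3-cell embryo, and its title number follows those of the 3 blastomeres of the 4-cell embryo IVF-511. It was kept as an embryo of its own at the 4-cell stage and enters no 3-cell value. It had 13928 open calls, more than IVF-551A, IVF-551B or IVF-551C, and its block profile correlated at 0.0687, -0.415 and -0.275 with theirs. With IVF-511A and IVF-511C, which correlated at 0.932 with each other, it correlated at 0.163 and 0.192, and its block 28, at 0.0939, was absent from both of them too. Block 5 went the other way, absent from IVF-511A (0.0458) and IVF-511C (0.052) and the highest of IVF-551D, at 2.38.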

How the data were processed

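ATAC-seq was run on single blastomeres in separate tubes, with an amount of Tn5 transposase set by batch, per the labels' protocols. The submitters' processing notes name FastQC 0.10.1, Bowtie2 2.2.6 and bedtools. Which build was used, and how a region came to be called open, is not stated there. The table holds other values than read counts: every value the authors deposited is 0 or 1, and 3.83% are 1. Table columns were tied to libraries by their running numbers, an inference from the numbering. The 3-cell and 2-cell libraries also follow each other in title number, so stage and library order cannot be told apart.

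From these calls, the chance of an open call was taken as 1 - exp(-ab), with a factor a for the blastomere and b for the region, fitted to 196 blastomeres in 12 iterations. Blocks were placed in bins of 100 regions from 419 blastomeres with at least 8000 calls. Embryo means were compared by exact two-sided permutation tests over all splits (numba 0.67.0), which take embryos as independent. Oocytes were pooled and the parents of an embryo are not given. Regions were tested by a quasi-Poisson score test with dispersion moderated in limma 3.58.1 (R 4.3.3), bounded by an exact binomial p and with Benjamini-Hochberg adjustment. Scripts were tested on simulated calls. Depth in reads is unknown, so precision was judged by open calls, and intervals cover counting error only. Named regions and blocks are, for each direction, the 2 with the smallest p, since none passed; all 3-cell embryos are named. Members, blocks and lists were chosen with earlier results of these data known. Alternatives covered thresholds, thinning, filters, runs of embryo numbers and embryos left out.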

Additional observations from a re-analysis of the deposited data

How the results depend on the processing

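Between 3-cell and 2-cell embryos, 7 of the 11 single values changed direction under at least 1 alternative, none of them past the threshold as reported. Leaving out each 3-cell embryo in turn gave ranges of -0.394 to -0.234 for log10 open calls, -12.4 to 7.58 percentage points for blastomeres with an absent block, -0.753 to 1.15 for absent blocks, -0.216 to 0.0563 for unevenness, -0.0371 to 0.316 for the correlation between blastomeres, 4.91 to 11.1 for the mixed segment, 4.11 to 9.63 for commonly open regions, -0.0012 to 0.00968 for shared open regions and 0.0193 to 0.563 for block Q. Against 4-cell embryos the ranges were -11.7 to 8.33, -0.117 to 1.78 and -0.00549 to 0.00539 for blastomeres with an absent block, absent blocks and shared open regions, and the first was 4.31 within runs of embryo numbers. With at least 5000 block calls, blastomeres with an absent block differed by 8.33, unevenness by 0.0685, block P by 0.0126 and block Q by -0.282. With at least 500 block calls, a setting chosen after seeing the data, absent blocks differed by -0.308 and block P by 0.0347; thinned to 500, absent blocks differed by -0.599, block P by 0.0376 and block Q by -0.0505. Absent blocks differed by -0.465 at a threshold of 0.05, blastomeres with an absent block by 21.5 at 0.2, and shared open regions by -0.000799 at 5000 calls. With complete embryos, which gave no 3-cell value for blocks, log10 open calls (-0.309) and shared open regions (0.00952, exact permutation test, adjusted p = 0.0392) passed over the 5 comparisons left but not over all 11 (adjusted p = 0.0672 and 0.0863), an adjustment chosen after seeing the data; for shared open regions this is the same test as without embryo IVF-515. As log2 of observed over expected calls, also chosen after seeing the data, the mixed segment differed by 0.158 and commonly open regions by 0.176, and as residuals by 4.59 and 3.76; none passed. The region count of 0 was 19 by the score test alone and 4 by limma on log2 ratios, 0 by limma with the run of embryo numbers as a term and 0 in the other alternatives run. The cause of these changes was not tested. No paired analysis was possible because 3-cell and 2-cell embryos share no number, and 3-cell and 4-cell embryos share 1, that of IVF-551. Yield limits the block values, since 7 of the 18 3-cell blastomeres were under 2000 block calls.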
